A study of Mus musculus with 3 samples.

Results

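The metallothioneins Mt1 and Mt2, the zinc-sensing transcription factor Mtf1 and the zinc exporter Slc30a1 were followed as 4 genes chosen by symbol from the 18287 genes listed in the deposited tables. All 4 symbols were found in the table with glucose oxidase plus Et2HOBA and in the table with glucose oxidase. RNA came from a commercial primary culture of mouse aortic endothelial cells, and the study had 3 groups with a single library in each. Control cells carried a label of control treatment only. A second group received glucose oxidase, which produces hydrogen peroxide as it oxidizes glucose, for 30 min at a strength of 5 mU/mL, and its library is called GO below. The remaining group received the same glucose oxidase exposure together with ethyl-2-hydroxybenzylamine (Et2HOBA) at 0.2 mM for 24 h. Et2HOBA was used here as a scavenger of reactive lipid products, and the library of this group is called GO plus Et2HOBA. Et2HOBA given alone was not analysed here, and the labels do not say in which order the agents were added or whether wells were pooled. With 1 library in each group, the conditions could not be tested against each other and nothing below has been checked in a replicate. The 95% intervals are exact intervals on read counts, which reflect counting error alone and set one library against another.

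Metallothioneins are small, cysteine-rich proteins that bind zinc, copper and cadmium through their thiol groups, and the same thiols react with oxidants. The transcription factor MTF-1, product of Mtf1, binds free zinc through its zinc fingers and then activates genes that carry metal response elements. Mt1, Mt2 and Slc30a1, which exports zinc across the plasma membrane, are its best-known target genes. In endothelial cells, oxidants can release zinc from metallothionein, and MTF-1 is known as one route from that release to new metallothionein transcripts. Metallothionein genes are also known to be induced by glucocorticoids.

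Mt1 (ENSMUSG00000031765.8, chromosome 8, 94179082 to 94180327) and Mt2 (ENSMUSG00000031762.7, chromosome 8, 94172664 to 94173568) lie on the plus strand, and in GENCODE release M21 (build GRCm38) each has 3 exons in its principal transcript. Slc30a1 (ENSMUSG00000037434.7, chromosome 1, 191906767 to 191913247) has 2 exons, and Mtf1 (ENSMUSG00000028890.13, chromosome 4, 124802104 to 124849800) has 11. The promoters of Mt1, Mt2 and Slc30a1 are shown because these 3 are the textbook targets of MTF-1, and 2 of them were far higher in the treated libraries while the third was not. The sequences are from RefSeq (build GRCm38.p6, plus strand, chr8:94178839-94179118, chr8:94172368-94172647 and chr1:191906531-191906810) and run 5′ to 3′ from 250 bases before the RefSeq start to 30 bases after it. Capitals mark every match to the metal response element core, searched as TGCACNC and TGCGCNC on both strands.
Mt1: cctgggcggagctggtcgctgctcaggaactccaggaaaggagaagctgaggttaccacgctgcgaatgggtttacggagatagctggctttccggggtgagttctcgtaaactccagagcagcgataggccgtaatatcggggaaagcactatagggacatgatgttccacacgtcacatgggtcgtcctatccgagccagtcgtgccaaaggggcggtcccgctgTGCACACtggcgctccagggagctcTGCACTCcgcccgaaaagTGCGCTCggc
Mt2: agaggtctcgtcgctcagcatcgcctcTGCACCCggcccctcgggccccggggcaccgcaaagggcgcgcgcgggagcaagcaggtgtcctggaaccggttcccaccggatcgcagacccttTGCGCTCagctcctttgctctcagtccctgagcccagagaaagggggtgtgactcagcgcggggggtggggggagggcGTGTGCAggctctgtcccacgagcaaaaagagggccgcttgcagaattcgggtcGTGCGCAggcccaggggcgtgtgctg
Slc30a1: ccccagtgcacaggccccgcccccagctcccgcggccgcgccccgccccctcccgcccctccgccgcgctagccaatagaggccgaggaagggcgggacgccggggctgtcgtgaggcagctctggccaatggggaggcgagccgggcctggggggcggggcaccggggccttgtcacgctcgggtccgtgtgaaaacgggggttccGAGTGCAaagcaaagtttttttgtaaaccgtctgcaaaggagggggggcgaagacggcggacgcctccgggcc

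In windows of 250 bases before to 50 after the start, the Mt1 promoter held 3 matches and the Mt2 promoter held 4. The Slc30a1 promoter held 2, the second of them 31 bases after the start and so beyond the printed stretch, and the Mtf1 promoter held none. Of 32851 RefSeq promoter windows of the same length, 25.7% held at least 1 match, 7.11% at least 2, 1.97% at least 3 and 0.517% at least 4. In Mt1 all matches were on the strand of the gene, beginning 23 bases before the start and 3 and 21 bases after it. In Mt2 they began 223, 128 and 50 bases before the start and 5 bases after it, the latter 2 on the opposite strand. The antioxidant response element core, searched as TGACNNNGC on both strands, matched once in Mt2, 79 bases before the start, and once in Slc30a1, 82 bases before it. It had no match in the Mt1 or Mtf1 window, and 12.4% of all windows held at least 1. None of these matches overlapped one of the other motif. A match describes letters and is not a measured binding site. Other annotated Mt1 transcripts begin 129 and 159 bases downstream of the principal one. An Mt2 transcript begins 196 bases and a Slc30a1 transcript 489 bases downstream, and an Mtf1 transcript begins upstream. No window was searched around those starts. The RefSeq starts of Mt1, Mt2 and Slc30a1 also differ from their GENCODE principal starts, so the counts hold for these windows only.

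**Figure D1:**
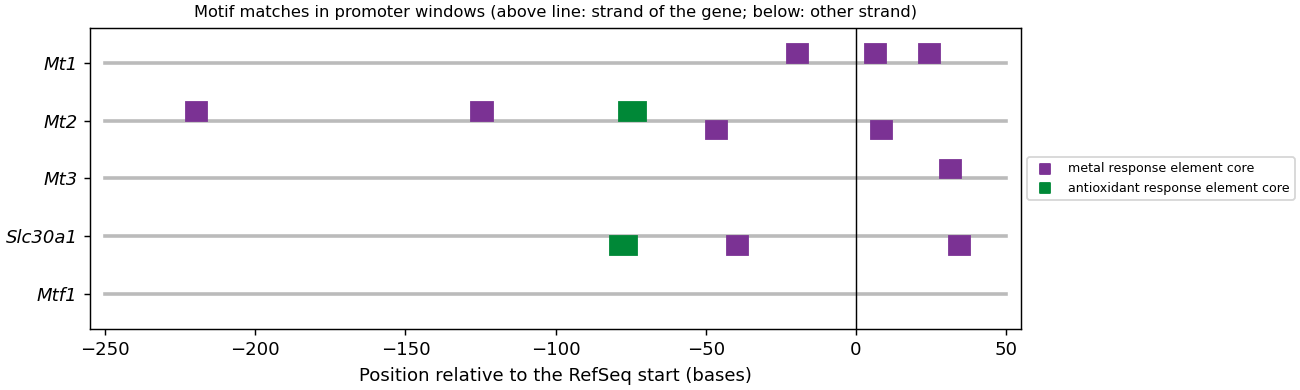
Motif matches in the RefSeq promoter windows of Mt1, Mt2, Mt3, Slc30a1 and Mtf1, by position in bases relative to the RefSeq start; boxes above a line are on the strand of the gene and boxes below it on the other strand. Mt2 holds 4 metal response element cores, Mt1 3, Slc30a1 2, Mt3 1 and Mtf1 none.

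Mt1, the more abundant of the metallothionein transcripts, was about 4- to 5-fold higher in both treated libraries than in control. It had 663 reads in control, 2591 after GO and 3435 with GO plus Et2HOBA. The control library was the low one, and the counting intervals of the 3 normalized counts did not overlap. The normalized count was 642 in control (95% interval 594 to 693), 2684 after GO (2582 to 2789) and 3307 with Et2HOBA (3198 to 3420). Against control, the level of Mt1 was 4.18-fold higher after GO (95% interval 3.83 to 4.56) and 5.15-fold higher with Et2HOBA (4.74 to 5.60).

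Mt2, whose product is close to that of Mt1, had the larger ratio from a much lower start. It had 11 reads in control, 269 after GO and 350 with Et2HOBA. Here too control was low, and its interval lay far below those of the treated libraries. The level of Mt2 was 26.1-fold higher after GO (95% interval 14.4 to 53.0) and 31.6-fold higher with Et2HOBA (17.5 to 63.9). Both intervals are wide because control had only 11 reads, and the intervals of the normalized count overlapped between the treated libraries, at 246 to 314 and 303 to 374.

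Slc30a1 encodes ZnT1, the exporter that removes zinc from the cell, and its level differed little between the libraries. It had 3274 reads in control, 2894 after GO and 2989 with Et2HOBA. Control was slightly the highest once depth was taken into account. The level was 0.945 of control after GO (95% interval 0.899 to 0.994) and 0.907 of control with Et2HOBA (0.863 to 0.954).

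Mtf1, which encodes the zinc sensor itself, had 1101 reads in control, 1065 after GO and 1337 with Et2HOBA. The library with Et2HOBA was the high one and the other two had overlapping counting intervals. Its level was 1.03-fold that of control after GO (95% interval 0.95 to 1.13) and 1.21-fold with Et2HOBA (1.11 to 1.31). With total-count scaling, which moves the median of all genes to -0.06 and -0.13 on the log2 scale in these comparisons, the log2 ratio of Mtf1 after GO turned from 0.05 to -0.01 and with Et2HOBA went from 0.27 to 0.12. Slc30a1 stayed below control under each scaling tried, with log2 ratios between -0.07 and -0.29 over both comparisons.

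**Figure D2:**
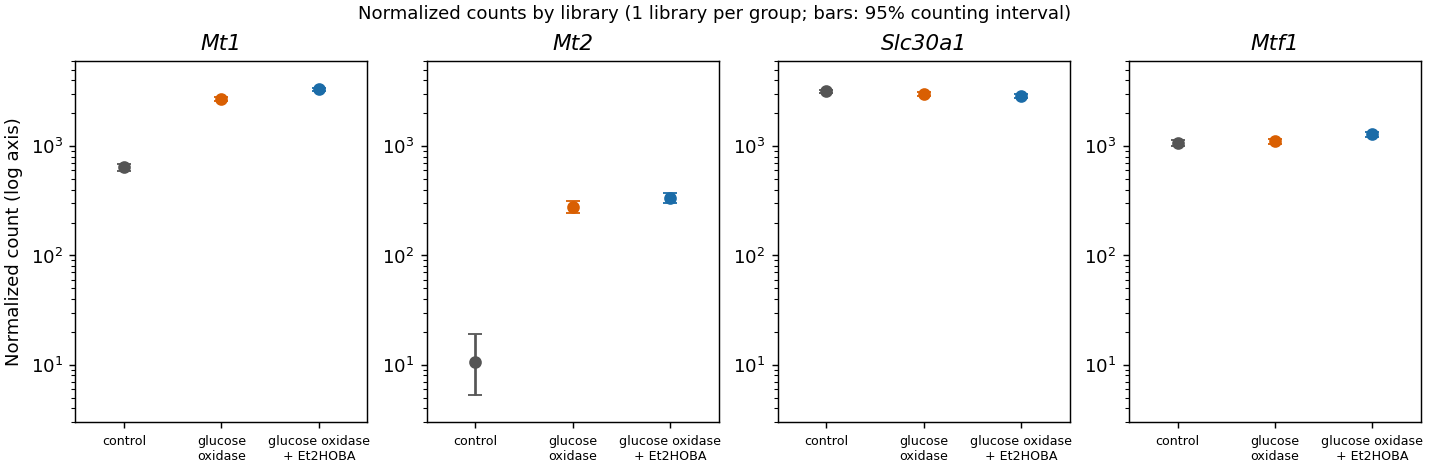
Normalized counts of Mt1, Mt2, Slc30a1 and Mtf1 (log axis) in the 3 libraries; points are single libraries and bars are 95% Poisson intervals. Mt1 and Mt2 are low in control and high in both treated libraries, while Slc30a1 and Mtf1 lie nearly level.

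For a call, log2 ratios were taken of normalized count plus 10, which understates low genes, and a gene was counted at 1 or more in either direction. After glucose oxidase, 2 of the 4 genes passed, both higher: Mt2 at 3.80 and Mt1 at 2.05. Of all listed genes 12.7% passed in either direction and 4.07% were higher. With Et2HOBA the same pair passed, Mt2 at 4.07 and Mt1 at 2.35, against 14.7% of all genes in either direction and 6.66% higher. Both comparisons use the same control library. By log2 ratio Mt2 ranked 15 and Mt1 133 among the 18287 genes after GO, and 28 and 193 with Et2HOBA. Slc30a1, at -0.08 and -0.14, and Mtf1 after GO, at 0.05, lay near the median of all genes, which was -0.01 and 0.00. With Et2HOBA Mtf1 was at 0.27, and 32.0% of all listed genes were at or above it. In the authors' deposited tables Mt1 had log2 differences of 1.79 after GO and 2.25 with Et2HOBA, and Mt2 had 1.72 and 2.76. The authors' deposited scale shrinks low counts to a different degree in each table, and in the GO table it put Mt2 below Mt1, whereas in the table with Et2HOBA Mt2 stayed above.

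Between the treated libraries none of the 4 genes passed the limit, against 8.55% of all listed genes. Among protein-coding genes, the type of these 4, the shares were smaller, with 0.971% higher and 2.35% lower. The level with Et2HOBA relative to GO was 1.23-fold for Mt1 (95% interval 1.17 to 1.30), 1.21-fold for Mt2 (1.03 to 1.42) and 1.17-fold for Mtf1 (1.08 to 1.27). For Slc30a1 it was 0.960 (0.912 to 1.01), an interval that includes equal levels. All but Slc30a1 were thus higher with Et2HOBA by more than counting error and by far less than the limit. With total-count scaling this turned for a pair of them: Mt2 was at 1.13-fold (0.963 to 1.33), which includes equal levels, and Slc30a1 at 0.899 (0.854 to 0.947), which does not. Mt1 at 1.15-fold (1.10 to 1.21) and Mtf1 at 1.09-fold (1.01 to 1.19) stayed higher by more than counting error under that scaling. Of all listed genes, 21.5% had a log2 ratio at or above the 0.30 of Mt1 in this comparison, and 27.2% one at or above the 0.22 of Mtf1. In none of the 4 genes was the level with Et2HOBA nearer to control than the level after GO, although for Slc30a1 that gap was within counting error unless total counts set the scale.

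Per kilobase of principal transcript, Mt1 was the highest of the 4 genes in every library. Its normalized count per kilobase was 1170 in control, 4889 after GO and 6024 with Et2HOBA, and the intervals of the other genes lay below it each time. In control the order below Mt1 was Slc30a1 at 605, Mtf1 at 140 and Mt2 at 20.9, with no overlap between neighbours. After glucose oxidase Slc30a1 at 572 (95% interval 551 to 593) and Mt2 at 545 (482 to 615) could not be placed in order. With Et2HOBA, Mt2 at 659 (592 to 732) lay above Slc30a1 at 549 (529 to 569). Mtf1 was lowest in both treated libraries, at 145 and 169. The place of Mt2 in these orders assumes that reads were counted over its whole principal transcript. An antisense gene covers 69.5% of that transcript, and its reads may not have been counted, so Mt2 could stand higher than given.

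The balance between Mt1 and Mt2 also differed between control and treated cells, and this share needs no scaling between libraries. Mt2 supplied 1.63% of the reads of both genes in control (11 of 674 reads, 95% Clopper-Pearson interval 0.817 to 2.90). It supplied 9.41% after GO (269 of 2860 reads, 8.36 to 10.5) and 9.25% with Et2HOBA (350 of 3785 reads, 8.34 to 10.2). The treated libraries matched within counting error, and both lay above control. The level of Mt2 must be read with its annotation. An antisense gene on the minus strand, Gm45774, covers exons 1 and 2 of Mt2 whole and 77 of the 233 bases of exon 3, together 69.5% of the principal transcript. The libraries were stranded, but whether counting used the strand is not given in the sources used here. Without strand, reads from the overlap cannot be told apart between the genes, and a counter may then assign them to neither. Gm45774 had 3 reads in control, 12 after GO and 14 with Et2HOBA, so its own counts were higher alongside those of Mt2. Its part in the low Mt2 count was not tested. Mt1 and Mt3 had no base covered by a gene on the other strand and shared no 50-base stretch with another gene. The overlaps of Slc30a1 with 1700034H15Rik (8.92% of its principal transcript) and of Mtf1 with 1110065P20Rik (9.45%) were smaller.

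**Figure D3:**
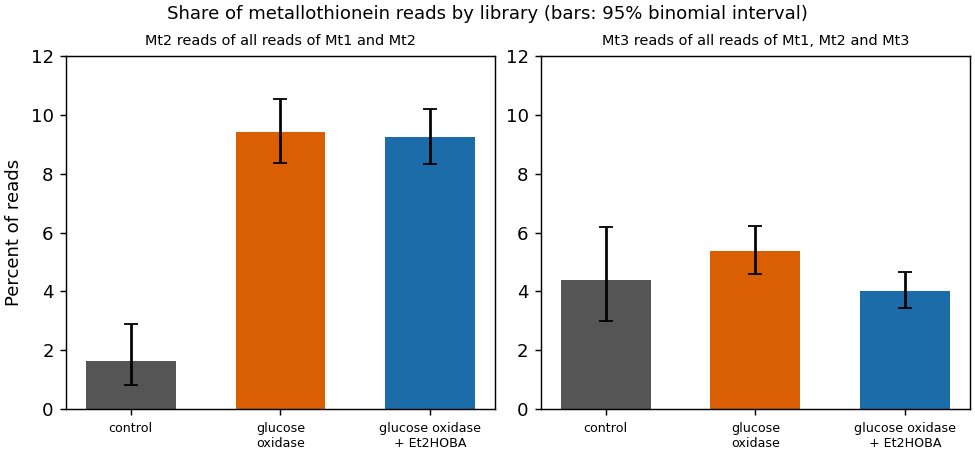
Percent of metallothionein reads from Mt2 (of Mt1 and Mt2 together, left) and from Mt3 (of all 3, right) in the 3 libraries; bars start at 0 and error bars are 95% binomial intervals. The Mt2 share is 1.63% in control and above 9% in both treated libraries, while the Mt3 share stays between 4.01% and 5.36%.

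Mt3, the metallothionein best known from brain, was the third listed member of the family, and Mt4 was not among the listed genes. Mt3 had 31 reads in control, 162 after GO and 158 with Et2HOBA, with control again low. Its level was 5.59-fold higher after GO (95% interval 3.79 to 8.49) and 5.06-fold higher with Et2HOBA (3.43 to 7.70). Between the treated libraries the ratio was 0.907 (0.723 to 1.14), which includes equal levels. As a share of reads of all 3 genes Mt3 stood at 4.40%, 5.36% and 4.01% in control, GO and GO plus Et2HOBA, and the intervals overlapped. All 3 listed metallothioneins thus passed the limit in both comparisons with control, with medians of 2.15 and 2.35 on the log2 scale, beside -0.01 and 0.00 over all listed genes. On the authors' deposited scale Mt3 stood at 0.97 after GO, just under the limit, and at 1.34 with Et2HOBA.

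Zinc exporters of the Slc30 family move zinc out of the cytosol, to the outside or into organelles. Of 10 members 7 were listed, and none passed the limit in any comparison. Of all listed genes 12.7% passed after GO, 14.7% with Et2HOBA and 8.55% between the treated libraries. The median over the 7 was 0.11 (GO) and 0.14 (GO plus Et2HOBA) on the log2 scale. The highest was Slc30a4, an exporter that loads vesicles, with 3670, 5125 and 6890 reads in control, GO and GO plus Et2HOBA. Its level was 1.49-fold (95% interval 1.43 to 1.56) and 1.87-fold (1.79 to 1.94) that of control. Slc30a9 followed with 4590, 5616 and 7276 reads and ratios of 1.31 and 1.58. Slc30a2 had 9, 4 and 5 reads and could not be placed.

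Zinc importers of the Slc39 family bring zinc into the cytosol. Of 14 members 13 were listed, with medians of 0.18 after GO and 0.16 with Et2HOBA. The limit was passed by 1 of them, higher in both comparisons with control, where 4.07% and 6.66% of all listed genes were higher. That gene was Slc39a14, which encodes ZIP14, a carrier of zinc and also of iron and manganese. It had 512 reads in control, 1390 after GO and 1959 with Et2HOBA, so both treated libraries lay above control. The level was 2.90-fold higher after GO (95% interval 2.62 to 3.22) and 3.80-fold higher with Et2HOBA (3.45 to 4.20). Slc39a6 had 1375, 1681 and 2258 reads, and its ratios to control were 1.31 and 1.63. Slc39a10, an importer that MTF-1 is known to repress, had 3903, 3185 and 3225 reads, 0.872 of control (0.832 to 0.914) and 0.821 of control (0.783 to 0.860).

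Other genes for which MTF-1 has been named as a regulator were mixed. Of 7, all listed, 3 were higher past the limit after GO, where 4.07% of all listed genes were, and none was lower. With Et2HOBA 4 were higher and 1 lower, where 6.66% of all listed genes were higher and 8.04% lower. The median log2 ratios were 0.47 and 1.16. Slc40a1, the iron exporter ferroportin, had 612, 4411 and 7103 reads, a level 7.70-fold (95% interval 7.08 to 8.40) and 11.5-fold (10.6 to 12.5) that of control. Ndrg1, a stress-responsive gene, had 1993, 5631 and 12146 reads, with ratios of 3.02 and 6.06. Pgf, placental growth factor, had 3078, 4002 and 9055 reads, with log2 ratios to control of 0.47 after GO and 1.54 with Et2HOBA. Between the treated libraries Ndrg1 and Pgf were 2.00- and 2.10-fold higher with Et2HOBA, which was past the limit here, as for 6.39% of all listed genes, and not with total-count scaling. Both genes are protein-coding, and among protein-coding genes alone the share was 0.971%, beside 20.8% among the other gene types. Gclc, which makes the rate-limiting enzyme of glutathione synthesis and is also an NRF2 target, was 2.24-fold higher than control in both treated libraries. Csrp1, an actin-associated LIM protein, was lower, with 13442, 6792 and 5403 reads and ratios of 0.540 and 0.399. Most of these genes answer to other regulators as well, and the part of MTF-1 was not tested.

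**Figure D4:**
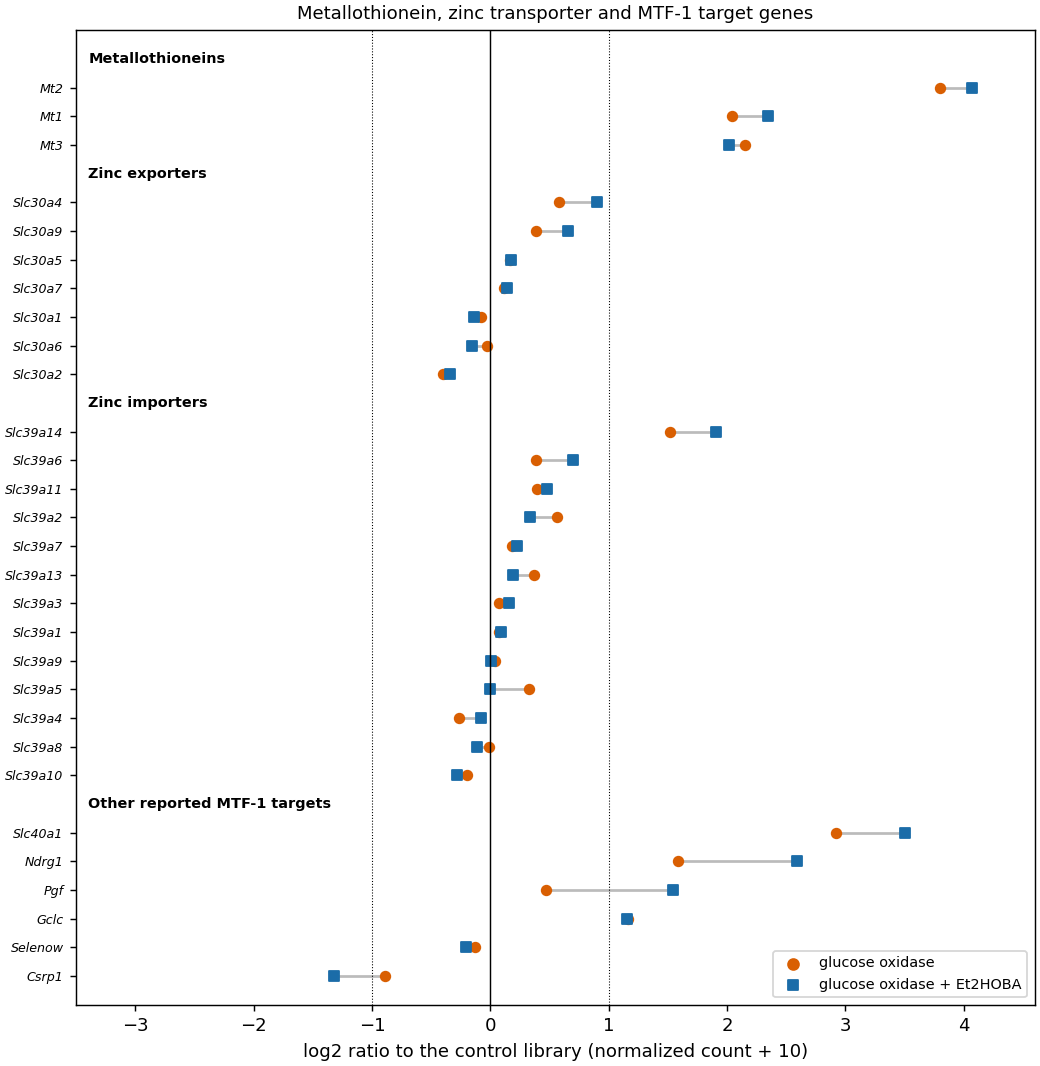
Log2 ratio to control of normalized count plus 10 for metallothioneins, zinc exporters, zinc importers and other reported MTF-1 targets, after GO (circles) and with Et2HOBA (squares); dotted lines mark 1 and -1. The 3 metallothioneins, Slc39a14, Slc40a1, Ndrg1 and Gclc lie past 1 in both comparisons, and Slc30a1 lies near 0.

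Target genes of regulators known to act on metallothionein genes besides MTF-1 were read as well, and regulator activity was not measured. Among glucocorticoid receptor targets, all 10 listed, none was higher past the limit in either comparison with control, and 1, Sgk1, was lower in both, with 18407, 5547 and 3098 reads. Of all listed genes 4.07% were higher and 8.6% lower past the limit after GO, and 6.66% and 8.04% with Et2HOBA. With 10 genes, these counts cannot be told apart from those shares. Of the 10 genes 7 lay above 0 after GO and 8 with Et2HOBA, and the medians were 0.20 and 0.16. The highest with Et2HOBA was Dusp1, a MAP kinase phosphatase, with log2 ratios of 0.21 after GO and 0.84 with Et2HOBA. Klf9, a transcription factor, had 0.38 and 0.78, Tsc22d3, which encodes GILZ, had 0.32 and 0.59, and the clock gene Per1 had 0.20 and 0.43. Fkbp5, a sensitive glucocorticoid target, had 0.17 and 0.19, and the receptor gene Nr3c1 had -0.35 and -0.36. Of 12 NRF2 targets 8 were higher past the limit after GO, where 4.07% of all listed genes were, and 9 with Et2HOBA, where 6.66% were. The medians were 1.20 and 1.47, and none was lower. Slc7a11, the cystine importer, had 5932, 38521 and 51489 reads, and Hmox1, which encodes heme oxygenase, had 8325, 34083 and 60660. Gclm, the partner of Gclc in glutathione synthesis, had 2727, 9842 and 13701 reads, and Srxn1, sulfiredoxin, had 3982, 13051 and 19771. In the same order of comparisons the log2 ratios were 1.36 and 1.49 for Nqo1, a quinone reductase, 1.24 and 1.44 for Osgin1, and 1.04 and 1.63 for Txnrd1, thioredoxin reductase. Mafg, a small MAF partner of NRF2, was at 0.92 after GO and past the limit with Et2HOBA, at 1.08. Of 10 heat shock factor targets, genes also known to answer to metals and thiol reagents, none was lower past the limit. After GO 3 were higher, beside 4.07% of all listed genes, and with Et2HOBA 5 were, beside 6.66%. Among them Hspa1a had 66, 483 and 1505 reads and Hspa1b 523, 1746 and 5152, and these near-identical genes share 66.3% and 62.3% of their 50-base stretches with other genes. Hspb1 had 2, 62 and 224 reads, a ratio of 33.1 (95% interval 8.80 to 280) after GO. The chaperones Hsph1 and Hspd1 were past the limit with Et2HOBA, at 1.09 and 1.04, and stood at 0.72 and 0.70 after GO. Of the 10 heat shock genes 3 passed the limit between the treated libraries, namely Hspa1a, Hspa1b and Hspb1, all higher with Et2HOBA. No metallothionein did. In that comparison 6.39% of all listed genes and 0.971% of protein-coding genes were higher past the limit. The part of any of these regulators in the metallothionein values was not tested.

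Mt1, Mt2 and Mt3 lie within 26.5 kb of each other on chromosome 8, and the genes around them were read to see how far the pattern extended, a look chosen after the values were seen. Within 500 kb of the Mt1 start 15 protein-coding genes were listed. The 3 metallothioneins were the members of this set past the limit in either comparison with control. The other 12 had median log2 ratios of 0.17 after GO and 0.11 with Et2HOBA. Of all protein-coding genes 4.53% were higher and 4.76% lower past the limit after GO, and 7.33% and 9.30% with Et2HOBA. With shares this low, 12 genes cannot show where the pattern ends. With other gene types included 22 genes were listed, and 1 of them was lower past the limit after GO. The nearest on one side, Nup93, a nuclear pore subunit 35.5 kb away, had 1894, 1853 and 1906 reads in control, GO and GO plus Et2HOBA. On the other side Bbs2, a gene of the cilium, had 641, 731 and 643 reads. Herpud1, a gene of endoplasmic reticulum protein degradation 207 kb away, came closest to the limit, with 1529, 2382 and 3045 reads and log2 ratios of 0.73 and 0.98.

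**Figure D5:**
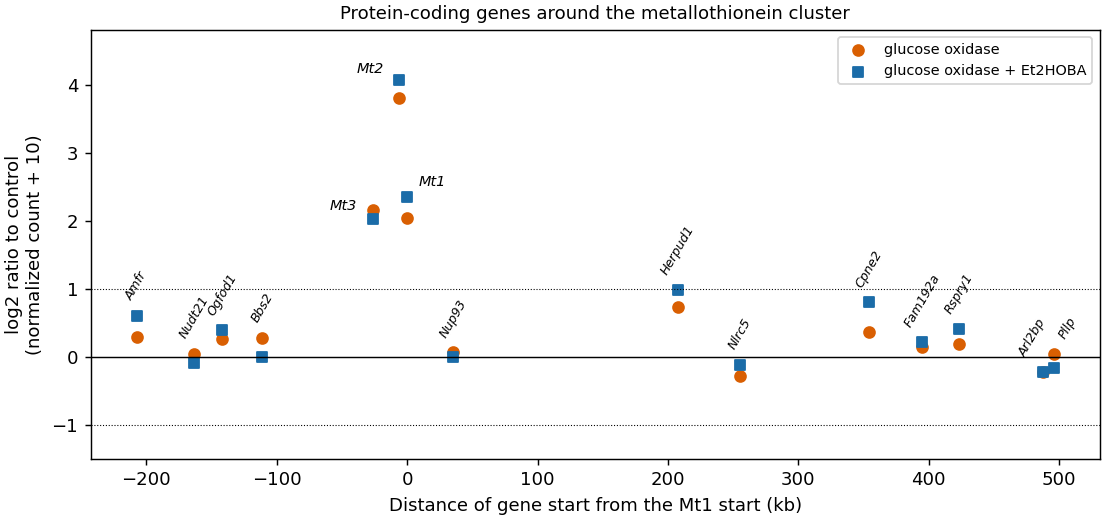
Log2 ratio to control of normalized count plus 10 for the 15 listed protein-coding genes within 500 kb of the Mt1 start, by distance of the gene start in kb, after GO (circles) and with Et2HOBA (squares); dotted lines mark 1 and -1. Mt1, Mt2 and Mt3 lie above 2 in both comparisons and the other 12 genes lie below 1.

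By likeness of pattern, measured as the Euclidean distance in the log2 ratios against control, 10593 protein-coding genes with a mean normalized count of at least 100 were ranked. This rests on 3 libraries, and says nothing of shared control. Nearest to Mt1 were Cd300lb, an immune receptor (54, 232 and 329 reads, distance 0.06), Btc, the growth factor betacellulin (120, 477 and 683 reads, 0.07), and Trim46 (200, 849 and 1059 reads, 0.08). Nearest to Mt2 were Pycr1, an enzyme of proline synthesis (93, 1219 and 1681 reads, distance 0.14), Gsta1, a glutathione transferase with close paralogs (8, 228 and 340 reads, 0.18), and Il12b, a cytokine subunit (8, 219 and 360 reads, 0.27). Of the ranked genes 6 lay within 0.1 of Mt1 and none within 0.1 of Mt2. Within 0.1 of Mtf1 lay 444 genes and within 0.1 of Slc30a1 lay 622. The nearest to Mtf1 were Sco1, Zdhhc21 and Lpin1, and the nearest to Slc30a1 were Commd8, Ccdc86 and Ythdf1, all at distances of 0.01.

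Over the listed genes the libraries held between 35005089 and 40212212 reads. All 8 endothelial markers were listed, with summed normalized counts of 288097 in control, 186949 after GO and 178105 with Et2HOBA. The markers did not all follow the sum. Emcn was higher than control, at 1.26-fold after GO and 1.47-fold with Et2HOBA, and Cdh5 was at 0.870 and 1.14. The rest were lower in both. Among the leukocyte markers Cd68 and Csf1r were listed, at sums of 7966, 17692 and 26775, nearly all from Cd68, a lysosomal gene. Ptprc, Adgre1 and Cd3e were not among the listed genes. Of 4 fibroblast markers 2 were listed, Pdgfra and Col1a1, at 131, 1404 and 2738. Nearly all of it was Pdgfra, with 107, 1325 and 2821 reads, while Col1a1 had 28, 30 and 23. Of 5 smooth muscle markers 4 were listed, at sums of 42.6, 73.5 and 95.3. Myh11 had 19, 35 and 73 reads, Acta2 8, 18 and 13, Des 8, 9 and 9, and Tagln 9, 9 and 4. Of 4 epithelial markers none was listed. The endothelial sum and the Cd68 and Pdgfra values moved in the same libraries as Mt1 and Mt2, and their part in the metallothionein values was not tested. In bulk RNA, a change in the number of cells of one kind and a change in RNA per cell cannot be told apart.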

How the data were processed

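Stranded libraries were prepared from polyadenylated RNA with a mRNA kit, per the labels' protocols, and the submitters' processing notes name STAR, featureCounts and mm10 without versions. The authors deposited raw read counts for the control and the glucose oxidase plus Et2HOBA libraries. They also deposited log2 values: normalized values of those libraries and log2 differences for the comparisons, in tables without p-values. Between the treated libraries the deposited differences covered 7 genes only. Of the deposited gene IDs 17878 had the same version, and all of these the same position, in GENCODE release M21.

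The GO library's counts came from inverting the authors' log2 differences, which follow asinh of the root of each count. Over 18258 genes matched by symbol, 100% came out within 0.01 of a whole number, against 3.30% with every control count raised by 1 read. A spreadsheet had turned 19 symbols into dates, and 12 genes sharing a listed name were placed by whole reads. The deposited scale has the effect of a large pseudocount, 202 normalized counts in the GO table and 71.1 in the table with Et2HOBA. Between the treated libraries it was fitted to the 7 genes with a deposited difference, at a pseudocount of 1240, and extended to all genes.

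Normalized counts are reads over median-of-ratios size factors of the 3 libraries (1.03, 0.965 and 1.04). No count model was fitted, since 1 library per group gives no spread. Ratios carry exact Clopper-Pearson intervals and levels exact Poisson intervals, at 95%. Only the ratio intervals were tried on simulated data. Those were Poisson counts without spread between replicates, so they say nothing of such spread. Lengths are those of principal transcripts. Promoter windows covered all 4 genes. The genes and the 8 gene lists were chosen with earlier results of these data known, as were the limit of 1 and the pseudocount of 10. Named genes were the 4 genes, list genes past the limit with up to 6 others per list, and the 3 nearest genes by pattern. Gm45774, 1700034H15Rik, 1110065P20Rik and the marker genes were named for their position or type, and 1 marker gene is not reported here. Python 3.11.15, numpy 2.4.6 and scipy 1.17.1 were used.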

Additional observations from a re-analysis of the deposited data

How the results depend on the processing

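Under the 4 other scalings tried, Mt1 and Mt2 stayed at least 1 log2 unit above control. Mt3 did not: on the deposited scale it was at 0.97 after GO, which left 2 of the 3 metallothioneins past the limit there. On the deposited scale the log2 ratio of Mt1 after GO was 1.79, and that of Mt2 was 1.72 after GO and 2.76 with Et2HOBA. With total-count scaling Mt1 had 2.20 with Et2HOBA against control and 0.21 against GO, Mtf1 had 0.12 with Et2HOBA against control, and Slc30a1 had -0.29 against control and -0.15 against GO. The count of genes past the limit, 2317 (GO), 2688 (GO plus Et2HOBA) and 1563 (treated against treated), was in that order 4243, 4494 and 3311 with a pseudocount of 1. It was 734, 1768 and 43 on the deposited scale, 6175, 7332 and 4670 at a limit of 0.5 and 526, 695 and 391 at a limit of 2. The 43, like every value between the treated libraries on the deposited scale, rests on a fit to 7 genes. Over protein-coding genes the count past the limit was 1235 after GO and 441 between the treated libraries. Of the genes past the limit with Et2HOBA 45.3% were higher, and 35.0% with total-count scaling; between the treated libraries it was 74.8%, 60.2% with a pseudocount of 1, and 29.3% over protein-coding genes (129 higher and 312 lower). Zinc importers past the limit were 2 in each comparison with control at a pseudocount of 1, where Slc39a2, with 1, 6 and 4 reads, was added. Reported MTF-1 targets past the limit between the treated libraries were 2, and 0 with total-count scaling and on the deposited scale. With total-count scaling 1 glucocorticoid target passed between the treated libraries, and 3 heat shock genes passed with Et2HOBA against control; on the deposited scale 1 heat shock gene passed between the treated libraries. Where a value moved, the cause was not tested. Size factors from protein-coding genes, added after the data were seen, moved none of the 4 genes across the limit and no list count by over 1.5 times. No paired analysis was possible because each group had 1 library, and for the same reason no replicate could be left out. Depth limits Mt2 in control (11 reads), Slc30a2 and Slc39a2.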

Other observations

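Metallothioneins also bind copper, and genes of copper handling were read beside them. Of 12 genes 10 were listed and none passed the limit in any comparison, with medians of -0.02 after GO and -0.06 with Et2HOBA. The share of all listed genes that passed was 12.7% after GO, 14.7% with Et2HOBA and 8.55% between the treated libraries. Cox17, a copper chaperone of the mitochondrion, had 242, 363 and 374 reads. Atox1, the chaperone that hands copper to the exporters, had log2 ratios of -0.47 and -0.59, and the exporter Atp7a had 0.13 and 0.42. Cutc had 698, 560 and 421 reads.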
